A study of Mus musculus with 4 samples.

Results

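The 10 genes described here store, move or sense iron: the ferritin subunits Fth1 and Ftl1, the import genes Tfrc, Slc11a2 and Steap3, the phagosomal transporter Slc11a1, the export genes Slc40a1 and Cp, the iron sensor Ireb2 and the siderophore binder Lcn2. They were chosen by gene name from 54532 genes, of which 22046 are protein-coding, and all 10 were found in the count tables and passed the filter on low counts. RNA was measured in primary microglia, the resident macrophages of the brain, from CD1 mice. The cells received 1 µM EGCG (epigallocatechin gallate, a green tea catechin) or Vehicle for 24 h, with 2 biological replicates per group. As the study's methods describe, microglia came from mixed glia of newborn pups grown with GM-CSF, the astrocyte layer was removed with trypsin, and both groups were held in serum-free medium with IL-34, TGFβ2, GM-CSF, cholesterol and a supplement that contains transferrin. The labels do not say whether the EGCG and Vehicle libraries of one replicate number came from the same culture, so p-values describe the spread between these libraries.

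Iron enters most cells bound to transferrin, is released from the endosome as ferrous iron, and is used, stored in ferritin or exported by ferroportin. Macrophages are known for recycling iron and for withholding it from microbes. Part of this control does not change the gene's transcription: when iron is low, iron regulatory proteins bind a hairpin, the iron-responsive element. A hairpin in the 5′ UTR blocks translation, whereas hairpins in the 3′ UTR protect the mRNA from decay. RNA counts can register the second effect but not the first.

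The hairpins are shown because they separate the members whose mRNA amount can follow this control from those whose protein amount follows it. They were searched on the transcribed strand of the GENCODE M21 transcripts (GRCm38) as an unpaired C, a stem of 5 bases, the loop CAGTGN with A, C or T as its last base, and the returning stem, with at least 4 of 5 bases paired. Matches in a UTR were found in 5 of the 10 members, against 802 of 21901 genes (3.66%). When all stem bases had to pair, 4 members and 122 genes (0.557%) had a match. Each sequence below is 30 bases long and runs 5′ to 3′ on the gene's strand, with the loop in capitals.
Fth1 5′ UTR, chr19:9982732-9982761, plus strand: ttcctgcttcaaCAGTGCttgaacggaacc
Ftl1 5′ UTR, chr7:45459778-45459807, minus strand: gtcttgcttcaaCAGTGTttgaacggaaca
Slc40a1 5′ UTR, chr1:45925464-45925493, minus strand: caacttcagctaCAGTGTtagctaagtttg
Slc11a2 3′ UTR, chr15:100395152-100395181, minus strand: agccatcagagcCAGTGTgtttctatggtt
Tfrc 3′ UTR, chr16:32631219-32631248, plus strand: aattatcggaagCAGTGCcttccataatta
Tfrc 3′ UTR, chr16:32631598-32631627, plus strand: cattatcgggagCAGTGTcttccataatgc
Tfrc 3′ UTR, chr16:32631663-32631692, plus strand: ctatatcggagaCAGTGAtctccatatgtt
Tfrc 3′ UTR, chr16:32631710-32631739, plus strand: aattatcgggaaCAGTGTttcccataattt

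Both ferritin genes and the exporter carried the loop upstream of the coding sequence. Tfrc had 4 matches downstream of it, and Slc11a2 had 1, in transcript variant 205, where 4 of 5 stem bases paired. Hairpins that depart from the searched pattern would be missed, so these are counts of matches only. In these windows no match was found in Slc11a1, Steap3, Ireb2, Cp or Lcn2.

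Library totals ranged from 33752397 to 54909854 counts, so that 3 counts, the floor used here, equalled 0.0546 to 0.0889 CPM, the counts scaled to a common library total. The labelled cell type was checked against 10 microglia markers, all of which were detected, with summed CPM between 5793 and 7027. Astrocyte markers summed to between 13.8 and 19.7 CPM, most of it Aldh1l1, and of 7 erythroid markers 6 had no count in any library. Stromal markers set the libraries of replicate 1 apart. In replicate 1, Col1a1 stood at 121 CPM with Vehicle and 0.125 with EGCG. The corresponding levels in replicate 2 were 36.7 and 37.0 CPM. Of 7 astrocyte markers tested, 6 were also lower with EGCG in replicate 1, among them Gja1 (4.88 and 0.0312 CPM), against 1 of 7 in replicate 2. Values of CPM for single genes are scaled by TMM. Summed marker levels are scaled by each library's counts on the protein-coding genes that passed the filter, without TMM factors. Replicate numbers are those of the labels.

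Ferritin mRNA made up about the same large part of every library. Fth1 (ENSMUSG00000024661, chr19:9982703-9985092, plus strand), which encodes the heavy subunit with ferroxidase activity, took 2.07% of all counts in Vehicle replicate 1 (95% Wilson interval 2.07 to 2.08), 2.14% in Vehicle replicate 2 (2.14 to 2.15), 2.11% in EGCG replicate 1 (2.10 to 2.11) and 2.22% in EGCG replicate 2 (2.22 to 2.23). It ranked second of 13811 tested protein-coding genes by mean CPM and first by mean CPM per kilobase. Ftl1 (ENSMUSG00000050708, chr7:45457944-45459884, minus strand), the light subunit, which supports mineral formation in the ferritin shell, took 0.985% and 0.754% of counts in the Vehicle libraries and 0.996% and 0.717% in the EGCG libraries, replicate 1 first. Together the ferritin genes took between 2.90% and 3.10% of counts, and all 10 members between 3.01% and 3.18%. Reads on annotated ferritin copies were few: 11 Fth1-like loci held 1 to 6 counts per library, and 4 Ftl1-like loci held between 0.919% and 1.08% as many counts as Ftl1.

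**Figure D1:**
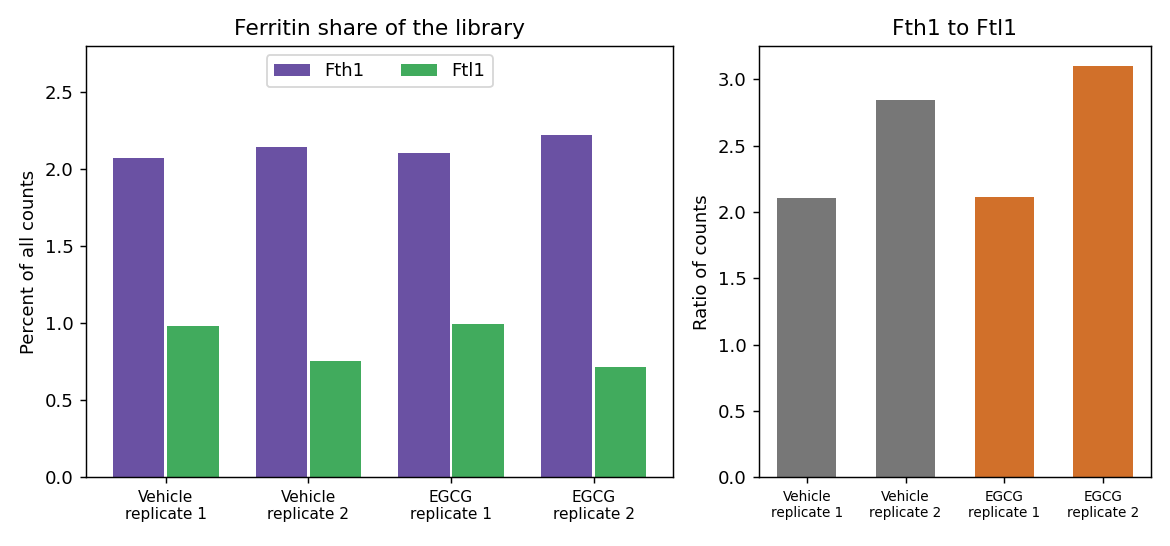
Percent of all counts that fell on Fth1 and Ftl1 in each library (left; bars, 1 library each) and the ratio of Fth1 to Ftl1 counts (right). The Fth1 bars lie between 2.07% and 2.22%, whereas the ratio is 2.11 and 2.12 in the libraries of replicate 1 and 2.84 and 3.10 in those of replicate 2.

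Across the members, levels spanned a wide range. Per kilobase of the gene length in the tables, mean CPM over the 4 libraries was 25165 ± 728 (SD, n = 4) for Fth1 and 6601 ± 1343 for Ftl1, then 109 ± 28.4 for Slc11a1, 24.7 ± 7.23 for Slc11a2 and 13.9 ± 2.97 for Slc40a1. Steap3 (11.1 ± 3.30), Tfrc (10.5 ± 0.885) and Ireb2 (10.3 ± 0.292) followed, and Cp (6.22 ± 2.91) and Lcn2 (2.49 ± 1.98) were lowest. The ranges over libraries overlapped between each neighbouring pair from Slc11a2 down to Ireb2, and between Cp and Lcn2, so no order is given within those runs. Fth1, Ftl1 and Slc11a1 each lay clear of the next gene. The tables give Fth1 866 bases, whereas the union of its annotated exons in GENCODE M21 is 3469 bases. That union is longer than the whole span counted for the gene (chr19:9982703-9985092), so it does not match the locus that was counted. With that union, chosen as an alternative after the data were seen, Fth1 stood at 6282 CPM per kilobase and Ftl1 at 6601. With the length of transcript 201 of each gene, the values were 23459 and 9138. Fth1 thus stood above Ftl1 with the length in the tables and with transcript 201, and below it only with the union.

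**Figure D2:**
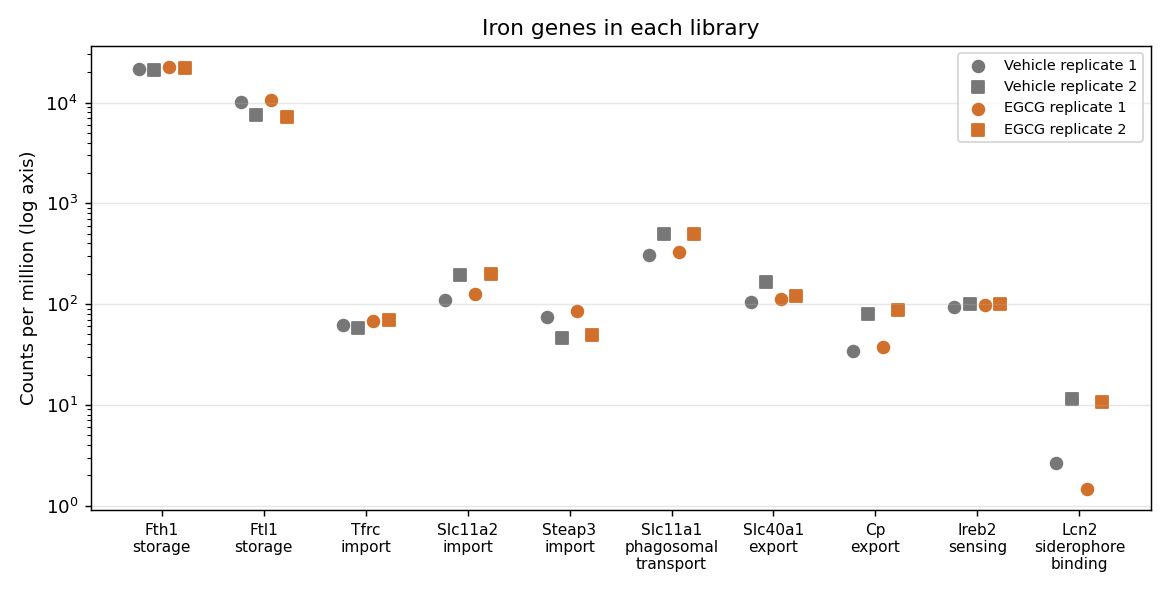
CPM (log axis) of the 10 genes in each of the 4 libraries, with their role under the name; circles are replicate 1 and squares replicate 2. Fth1 and Ftl1 lie far above the rest, Lcn2 lowest, and for Cp, Slc11a2 and Slc11a1 the squares lie above the circles in both groups.

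The main comparison asked whether 1 µM EGCG changed these transcripts relative to Vehicle. With treatment alone in edgeR's quasi-likelihood model, none of the 10 members passed, either at an adjusted p under 0.1 or at an unadjusted p under 0.05, a threshold passed by 0.116% of all 13811 genes. This fit counts the gap between replicates as error, so its 0 calls do not show that the members were unchanged. The smallest unadjusted p was 0.181, for Tfrc, and every adjusted p was 1.00. DESeq2 with the same design also called 0 members at either threshold. With the replicate table as a second term in edgeR, 1 member, Tfrc, had an unadjusted p under 0.05, against 3.21% of all genes, and none had an adjusted p under 0.1. EGCG libraries of both replicates lay above both Vehicle libraries for 2 members, Fth1 and Tfrc (6.39% of all genes), and below them for 0 members (5.51% of all genes). The median log2 fold change was 0.05 for the members and 0.01 for all genes.

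Fth1 CPM was 21328 and 21209 in the Vehicle libraries and 22524 and 22112 in the EGCG libraries. The EGCG libraries were therefore higher by a factor of 1.06 in replicate 1 and 1.04 in replicate 2, and with scaling by total counts in place of TMM, added after the data were seen, the groups overlapped. The fitted log2 fold change was 0.07 ± 0.30 (SE, n = 2 per group), with an edgeR 95% interval from -0.76 to 0.90. Adding the replicate term narrowed it to -0.30 to 0.44.

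For Ftl1, CPM was 10132 and 7463 in the Vehicle libraries and 10646 and 7140 in the EGCG libraries. The groups overlapped, and the differences within replicates pointed in opposite directions, by log2 0.07 and -0.06. The fitted log2 fold change was 0.02 ± 0.36 (SE), and its sign changed with the scaling of the libraries.

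Tfrc (ENSMUSG00000022797, chr16:32608920-32632794, plus strand) encodes transferrin receptor 1, which takes up iron-loaded transferrin. Its CPM was 62.7 and 58.1 in the Vehicle libraries and 68.7 and 69.9 in the EGCG libraries. The EGCG libraries were higher in both replicates, by log2 0.13 and 0.27, and the groups did not overlap under TMM or under total counts. With treatment alone the log2 fold change was 0.20 ± 0.12 (SE, 95% interval -0.14 to 0.54; edgeR unadjusted p = 0.181). With replicate as a term the estimate was 0.20 ± 0.064 (interval 0.035 to 0.363; edgeR unadjusted p = 0.0258), and the adjusted p was 0.995. DESeq2 gave an unadjusted p of 0.345 with treatment alone and 0.0941 with replicate as a term. Of these fits, only edgeR with replicate as a term gave an unadjusted p under 0.05, and none passed after adjustment.

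Slc11a2 (ENSMUSG00000023030, chr15:100387898-100425072, minus strand) encodes DMT1, which carries ferrous iron out of the endosome. CPM was 109 and 196 in the Vehicle libraries and 127 and 197 in the EGCG libraries, so the EGCG excess was log2 0.22 in replicate 1 and 0.00 in replicate 2. Steap3 (ENSMUSG00000026389, chr1:120190757-120272705, minus strand) encodes an endosomal ferrireductase, which reduces the iron that DMT1 carries. Its CPM was 74.9 and 46.0 in the Vehicle libraries and 84.5 and 49.5 in the EGCG libraries, a difference of log2 0.17 and 0.11 within replicates. The groups overlapped for both genes because the replicates stood apart, and with replicate as a term the edgeR unadjusted p was 0.163 for Slc11a2 and 0.0632 for Steap3.

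Slc11a1 (ENSMUSG00000026177, chr1:74375195-74386062, plus strand) encodes NRAMP1, a metal transporter of the phagosome membrane. CPM was 304 and 500 in the Vehicle libraries and 326 and 492 in the EGCG libraries, with differences of log2 0.10 and -0.02 within replicates. Its ratio to Slc11a2, its relative among the members, was 4.79 and 4.37 per length in the Vehicle libraries and 4.40 and 4.29 in the EGCG libraries.

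Slc40a1 (ENSMUSG00000025993, chr1:45908068-45926523, minus strand) encodes ferroportin, the only known cellular iron exporter of mammals. CPM was 105 and 164 in the Vehicle libraries and 112 and 120 in the EGCG libraries. The EGCG library was higher in replicate 1, by log2 0.09, and lower in replicate 2, by log2 -0.45, which was the largest difference between EGCG and Vehicle of any member in replicate 2. The fitted log2 fold change was -0.21 ± 0.26 (SE, 95% interval -0.95 to 0.52; edgeR unadjusted p = 0.462). The ratio of Tfrc to Slc40a1 per length, import to export, was 0.872 and 0.515 in the Vehicle libraries and 0.895 and 0.846 in the EGCG libraries, and here Vehicle replicate 2 stood below the other three.

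Cp (ENSMUSG00000003617, chr3:19957054-20009145, plus strand) encodes ceruloplasmin, a copper ferroxidase that helps exported iron bind transferrin. CPM was 34.1 and 80.1 in the Vehicle libraries and 37.1 and 86.8 in the EGCG libraries. The EGCG excess was log2 0.12 in either replicate, small beside the gap between replicates, and edgeR's unadjusted p was 0.858 with treatment alone and 0.0944 with replicate as a term.

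Ireb2 (ENSMUSG00000032293, chr9:54863789-54912530, plus strand) encodes iron regulatory protein 2, which binds the hairpins printed above. It varied least of the members apart from Fth1. CPM was 93.6 and 99.8 in the Vehicle libraries and 98.1 and 99.1 in the EGCG libraries, and the highest library exceeded the lowest by a factor of 1.07, against 1.06 for Fth1. The log2 fold change was 0.03 ± 0.12 (SE, 95% interval -0.31 to 0.37).

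Lcn2 (ENSMUSG00000026822, chr2:32384633-32388252, minus strand) encodes lipocalin 2, a secreted protein that binds bacterial siderophores. Raw counts were 86 and 418 in the Vehicle libraries and 47 and 585 in the EGCG libraries, or 2.62 and 11.4 CPM against 1.47 and 10.6 CPM. The EGCG library was lower in both replicates, by log2 -0.82 and -0.10, yet the groups overlapped. The log2 fold change was -0.21 ± 1.20 (SE, 95% interval -3.58 to 3.16), the widest of any member. In replicate 1, where the Lcn2 difference was larger, 7 of 8 stromal markers were also lower with EGCG. The median over the 8 markers was log2 -6.57 there, beside -0.00835 for the libraries of replicate 2. Their summed level was 3061 CPM in Vehicle and 1876 in EGCG for replicate 1, against 901 and 969 for replicate 2. Most of the replicate 1 sum was Fn1 (2410 CPM with Vehicle, 1711 with EGCG), which was lower by only log2 -0.49. The sum thus understates how far the typical stromal marker differed. Astrocyte markers, 6 of 7 lower with EGCG in replicate 1, summed to 19.7 CPM in Vehicle and 13.8 in EGCG there, and to 14.3 and 15.4 in replicate 2. The part of such cells in the Lcn2 difference was not tested, and in bulk RNA fewer cells of a type and less RNA per cell cannot be told apart.

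**Figure D3:**
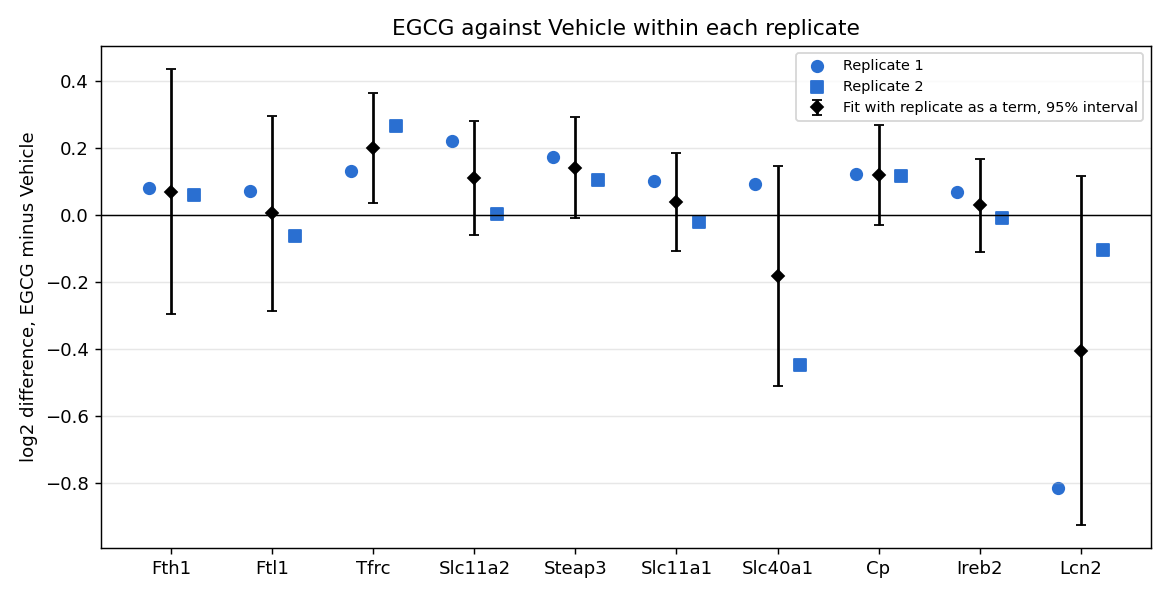
log2 difference between the EGCG and Vehicle library of the same replicate number (blue circles, replicate 1; blue squares, replicate 2) and the edgeR estimate with replicate as a term (black diamonds) with its 95% interval. Only for Tfrc does the interval, 0.035 to 0.363, exclude 0; for Ftl1, Slc11a1, Slc40a1 and Ireb2 the replicates lie on opposite sides of 0.

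Within replicates, 5 members were higher with EGCG in both (Fth1, Tfrc, Slc11a2, Steap3 and Cp), 1 was lower in both (Lcn2), and 4 differed in sign. For Slc11a2 the replicate 2 value was near 0. For 8 members the differences stayed under 0.3 log2 units in size in both replicates, with Slc40a1 and Lcn2 as the exceptions. The median difference was 0.10 in replicate 1 and -0.00333 in replicate 2, against 0.03 and 0.00177 for all genes. Over all 13811 genes, the differences in replicate 1 were nearly uncorrelated with those in replicate 2 (r = -0.054). The part of the stromal marker gap of replicate 1 in the differences of the members was not tested.

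More members differed between replicates than between treatments. With treatment and replicate in the edgeR fit, 7 of 10 members differed between replicate 2 and replicate 1 at an adjusted p under 0.1, where 53.5% of all genes did. Higher in replicate 2 were 5 members (27.7% of all genes), and lower were 2 (25.7% of all genes). This comparison sets 2 libraries against 2 and tests no condition. The median size of the log2 difference was 0.58 for the members and 0.36 for all genes.

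Lcn2 differed most, being 5.53-fold higher in replicate 2 (log2 2.47 ± 0.21 SE, edgeR adjusted p = 0.000831). Cp was 2.35-fold higher (log2 1.23 ± 0.059, adjusted p = 0.000187), and the gap was log2 1.23 within Vehicle and 1.22 within EGCG. Slc11a2 and Slc11a1 were 1.67-fold and 1.58-fold higher, with edgeR adjusted p of 0.00100 and 0.000885. The fifth, Slc40a1, was 1.30-fold higher (adjusted p = 0.0651), but its gap was log2 0.65 within Vehicle and 0.11 within EGCG. It was not called by DESeq2 (log2 0.36, adjusted p = 0.385), nor by edgeR with replicate as the only term and Vehicle replicate 2 left out (log2 0.17, adjusted p = 0.119).

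Lower in replicate 2 were Steap3 (log2 -0.74 ± 0.060, edgeR adjusted p = 0.0007) and Ftl1 (log2 -0.51 ± 0.11, adjusted p = 0.0188). With replicate as the only term and EGCG replicate 2 left out, Ftl1 was not called (log2 -0.47, edgeR adjusted p = 0.108). Fth1 (log2 -0.02), Tfrc (-0.04) and Ireb2 (0.05) were not called, with edgeR adjusted p of 0.933, 0.631 and 0.471. Scaled by total counts in place of TMM, Ireb2 passed the threshold (log2 0.13, adjusted p = 0.0679), so that 8 members were called. The ferritin subunits thus parted: the count ratio of Fth1 to Ftl1 was 2.11 and 2.12 in replicate 1 and 2.84 and 3.10 in replicate 2.

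Markers of cell type and state also differed between replicates. Of 10 microglia markers, 4 were higher and 4 lower in replicate 2 at an adjusted p under 0.1, among them Cx3cr1 (log2 1.20) and Tmem119 (log2 -1.41). Of all genes, 27.7% were higher and 25.7% lower. Of 8 markers of neutrophils, a known source of Lcn2, 2 passed the count filter, and Elane, S100a9 and Retnlg had no count in any library. Their summed level, 12.01 and 12.7 CPM in replicate 1 and 3.21 and 3.75 CPM in replicate 2, was mostly S100a8 (11.2 and 12.8, then 2.86 and 3.46 CPM, Vehicle first). S100a8 exceeds the sum in EGCG replicate 1 because only the single-gene value is scaled by TMM. Lcn2 was low in both libraries of replicate 1, in which Col1a1 was high in Vehicle and near 0 in EGCG. The part of cell composition in the replicate differences was not tested.

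**Figure D4:**
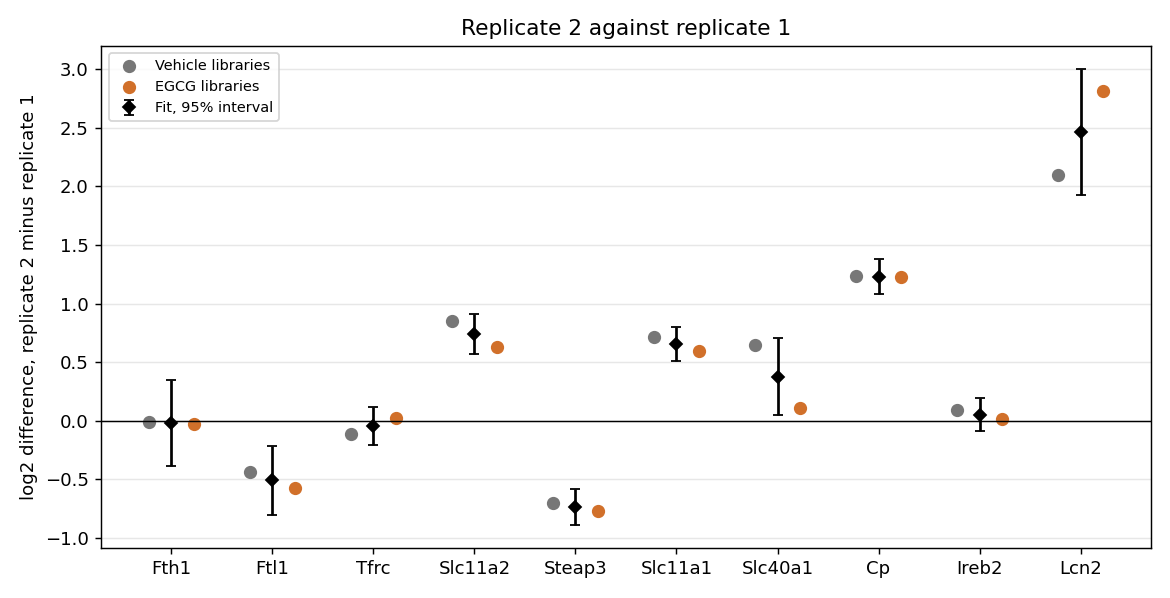
log2 difference of replicate 2 minus replicate 1 within Vehicle (grey), within EGCG (orange) and in the edgeR fit with treatment and replicate (black diamonds, 95% interval). Lcn2 (2.47) and Cp (1.23) lie highest, Steap3 (-0.74) and Ftl1 (-0.51) lowest, and for Slc40a1 the grey point (0.65) lies well above the orange one (0.11).

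Patterns over the 4 libraries were compared with those of 5338 well-expressed protein-coding genes by Euclidean distance of centred log2 CPM. Nearest to Fth1 were Elob, Sephs2 and Aebp2, at distances of 0.006 to 0.016. Nearest to Ftl1 were Plcb2, Arpp19 and Hnrnpab (0.025 to 0.035), and nearest to Tfrc were Mrpl42, Dynlrb1 and Sms (0.050 to 0.079). With 4 libraries, many genes share such a pattern.

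A list of 45 other iron-handling genes was read beside the members. Of these, 34 were tested, and 0 passed edgeR's unadjusted p under 0.05 with treatment alone. With replicate as a term 2 were higher and 1 lower at that threshold, which 3.21% of all genes passed, and none passed at an adjusted p under 0.1. Those higher were Slc39a8, a zinc and iron importer (log2 0.18, edgeR unadjusted p = 0.0310), and Sfxn1, a mitochondrial carrier (log2 0.15, edgeR unadjusted p = 0.0471). Slc39a14, which imports iron not bound to transferrin, was lower (log2 -0.21, edgeR unadjusted p = 0.0425). Its CPM was 35.1 and 42.01 in Vehicle and 27.8 and 39.5 in EGCG, or log2 -0.33 and -0.09 within replicates. The larger difference fell in replicate 1, where stromal markers were also lower with EGCG. The part of such cells in it was not tested.

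The partners of the members showed values of the same small size. Aco1, which encodes the other iron regulatory protein, stood at 65.2 and 89.2 CPM in the Vehicle libraries and 70.9 and 93.2 in the EGCG libraries. Fbxl5, which targets iron regulatory proteins for degradation when iron is plentiful, stood at 64.1 and 64.6 against 61.2 and 61.3. Its EGCG libraries lay below both Vehicle libraries, as for 5.51% of all genes (log2 -0.07 and -0.08 within replicates). Ncoa4, the receptor that delivers ferritin to autophagosomes, stood at 158 and 154 against 179 and 162 (log2 0.18 and 0.07). Its EGCG libraries lay above both Vehicle libraries, as for 6.39% of all genes. None of these genes had an unadjusted p under 0.05 in either edgeR fit.

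Hmox1, which releases iron from heme, was the most abundant gene of the wider lists per kilobase, at 371 ± 27.5 CPM (SD, n = 4). It stood at 690 and 631 CPM in the Vehicle libraries and 686 and 589 in the EGCG libraries, and the groups overlapped. Trf, which encodes transferrin, stood at 50.4 and 68.7 CPM in Vehicle and 58.1 and 72.4 in EGCG. Hamp, which encodes hepcidin, the hormone that removes ferroportin from the membrane, had 0, 0, 2 and 1 counts, Vehicle first, within the floor of 3 counts in each library. It was not detectable at this depth.

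Genes that use iron gave few calls. Of 8 heme synthesis genes and 27 iron-sulphur cluster genes tested, 0 passed at an unadjusted p under 0.05 in either edgeR fit. Heme synthesis genes were higher with EGCG for 7 of 8 in each replicate (median log2 0.11 and 0.13), beside a median of 0.03 and 0.00177 for all genes.

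Of 12 genes that control lipid peroxides, the targets of iron-driven oxidation, 2 passed an unadjusted p under 0.05 with replicate as a term. Nfe2l2 encodes NRF2, a transcription factor of the antioxidant response with ferritin genes among its known targets. Its CPM was 608 and 474 in Vehicle and 738 and 561 in EGCG, higher by log2 0.28 and 0.24 within replicates. The edgeR estimate was 0.26 ± 0.055 (SE, unadjusted p = 0.00467, adjusted p = 0.995), and with treatment alone the unadjusted p was 0.342. Gpx4, which reduces lipid peroxides, was the other (log2 0.14, edgeR unadjusted p = 0.0447). The list as a whole did not rise with these 2 genes. Of its 12 genes, 4 were higher with EGCG in replicate 1 and 6 in replicate 2 (median log2 -0.03 and -0.01). Over the 5 wider lists, 5 of 102 genes tested (4.90%) had an unadjusted p under 0.05 with replicate as a term, where 3.21% of all genes did.

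**Figure D5:**
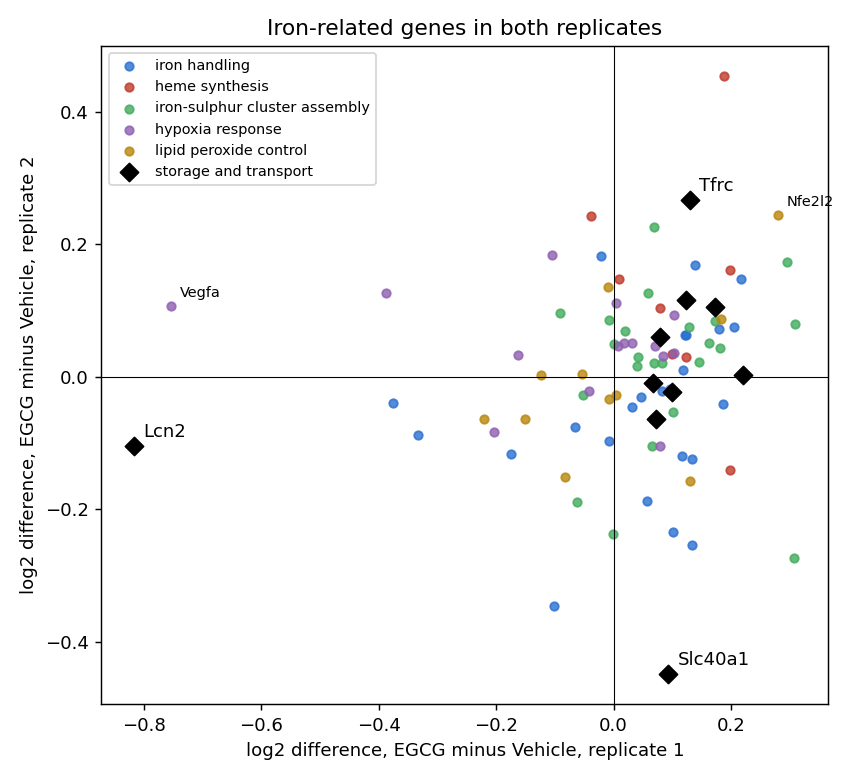
log2 difference between EGCG and Vehicle in replicate 1 (x axis) and replicate 2 (y axis) for the 10 members (black diamonds) and 82 of the 102 wider-list genes tested (coloured points), each with a mean of at least 5 CPM. Most points lie near 0 on both axes; Tfrc and Nfe2l2 lie up and to the right, Slc40a1 lowest on the y axis and Lcn2 and Vegfa to the left.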

How the data were processed

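The authors aligned filtered reads to GRCm38.p6 with HISAT2 and deposited raw counts per gene, 1 table per replicate holding both treatments. The counting program is not given in the sources used here. The gene lengths in the deposited tables served for levels per kilobase. Tables were joined on the gene identifier, leaving out 697 and 329 loci assembled separately in each table. Of the joined identifiers, 54409 occur in GENCODE M21, 98.3% at the same position.

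Protein-coding genes with at least 10 counts over the 4 libraries (13811) were tested in R 4.3.3 with edgeR 4.0.16 (TMM, quasi-likelihood F test, treatment as the only term, Benjamini-Hochberg adjustment over all genes), as the main test. The fit with the replicate number as a term and DESeq2 1.42.0 were alternatives. The method was tested on simulated counts, with changes larger than any EGCG difference of a member within a replicate. That test does not cover differences of the members' size. A prior count of 2 was added for log2 values of single libraries. The replicate tables were joined as deposited, and differences within each table are given beside the fits. With 2 libraries per group an exact permutation test could not go below p = 0.333, so none was used. Wilson intervals and floors cover counting error only, whereas edgeR's intervals include the spread between libraries.

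All 10 members are named. Of the wider lists, counts are given, with values for preset partner genes, genes with an unadjusted p under 0.05 and the 3 most abundant. Members and lists were chosen with earlier results of these data known. The values of 1 wider-list gene are not reported here.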

Additional observations from a re-analysis of the deposited data

How the results depend on the processing

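Replicate numbers deviated together (across 13811 genes, r = 0.64 between the replicate difference in Vehicle and that in EGCG). The treatment difference in replicate 1 was nearly uncorrelated with that in replicate 2 over the same genes (r = -0.054). Between the 2 libraries of one number, chi-square per gene was 12.4 and 10.3, against 271 to 289 across numbers. Libraries of one number were thus most alike, but no label ties a number to a culture, so pairing is read from the data only. The replicate block moved the number of members with an unadjusted p under 0.05 from 0 to 1 (Tfrc) and that of wider-list genes to 4 higher and 1 lower, and genes in all from 16 to 444. DESeq2 with the block gave 0 members, 1 higher and 1 lower. No call of a member at an adjusted p under 0.1 was made under any setting.

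Signs near 0 turned with scaling. The log2 fold change of Ftl1 was -0.0035 by DESeq2 with the block, -0.0070 under upper-quartile scaling and -0.0227 under total counts, which also gave Slc11a1 -0.0040 and Ireb2 -0.0051. Between replicates, Ireb2 became -0.0079 with upper-quartile factors, and total counts gave Fth1 0.0617 and Tfrc 0.0370 and called 8 members in place of 7, Ireb2 being added (0.132, edgeR adjusted p = 0.0679).

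Leaving out a library gave log2 fold changes from -0.295 to 0.558 for Slc11a2, -0.334 to 0.415 for Slc11a1, -0.651 to 0.853 for Cp, -0.0157 to 0.0578 for Ireb2, -0.304 to 0.255 for Ftl1, -0.291 to 0.543 for Steap3, -2.28 to 1.20 for Lcn2 and -0.500 to 0.131 for Slc40a1, whereas Fth1 (0.0485 to 0.0752) and Tfrc (0.127 to 0.256) kept their sign. These fits leave 1 library in a group, which is assumed to vary like the others, and an uneven mix of replicates. Wider-list genes called lower ranged from 0 to 3, the 3 being without EGCG replicate 2. With replicate as the only term, added after the data were seen, 6 to 7 members were called, and Fth1 ranged from -0.0601 to 0.0287 and Tfrc from -0.166 to 0.106 on the log2 scale. The cause of these shifts was not tested, beyond the libraries left out. Lcn2 rested on fewer counts in replicate 1 (86 and 47) than in replicate 2 (418 and 585), and the part of depth was not tested.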

Other observations

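Genes of the hypoxia response were read as a further list, since iron is a cofactor of the enzymes that sense oxygen. Of 22 genes 21 were tested, and 0 had an unadjusted p under 0.05 in either edgeR fit. Egln1, an oxygen sensor, stood at 46.3 and 71.6 CPM in the Vehicle libraries and 46.5 and 73.9 in the EGCG libraries. Pgk1, a glycolytic enzyme and the most abundant of the list per kilobase (188 ± 23.1 CPM, SD, n = 4), stood at 465 and 372 CPM in Vehicle and 470.2 and 385 in EGCG. Slc2a1, a glucose transporter, stood at 225 and 113 CPM in Vehicle and 209 and 128 in EGCG.

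Between replicates, 11 of 12 genes that control lipid peroxides were lower in replicate 2 at an edgeR adjusted p under 0.1, where 25.7% of all genes were. The exception, Lpcat3, was higher (log2 0.54, edgeR adjusted p = 0.00169), and it was named after its values were seen.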
